A study of Mus musculus with 12 samples.

Results

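The interaction of 2 gene deletions was measured in mouse colon: how far the expression of each gene in animals that lacked both L-amino acid oxidases, LAO1 and IL4i1, lay from the level at which the differences seen after losing each one alone would add up. For each probe it was the double knockout mean less the LAO1 knockout mean less the IL4i1 knockout mean plus the wild type mean, on the log2 scale. It was taken for the 19572 probes with a gene name among 22206 in all, and these named 19505 genes. The 12 arrays came from healthy male mice of 12 to 16 weeks, 3 arrays for each of 4 genotypes: wild type, LAO1 knockout (Lao1 lost, Il4i1 intact), IL4i1 knockout (Il4i1 lost, Lao1 intact) and the double knockout (both lost). The labels name colonic tissue, no treatment, and 4 mice chosen per genotype. They do not say how the deletions were made, in which cells, on which strain, or whether an array holds the RNA of 1 mouse. The p-values therefore measure only how these arrays spread, which may be technical.

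L-amino acid oxidases oxidise amino acids outside the cell, leaving a keto acid and releasing ammonia and hydrogen peroxide. IL4I1 is made by antigen-presenting cells and prefers phenylalanine, and it can also act on tryptophan. Interferon gamma, made by T cells and innate lymphocytes, acts through its receptor to switch on IRF1 and raises GTPases that attack intracellular microbes, the machinery of antigen presentation, chemokines and the tryptophan-degrading enzyme IDO1. Mucosal mast cells of the gut store chymases, serine proteases of the Mcpt family, in their granules.

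Of the colon markers, Muc2 (19.91 to 19.93 on the log2 scale), Slc26a3 (13.7 to 16.72), Krt20 (15.06 to 18.01) and Car1 (14.08 to 19.93) were bright on every array, while Hoxb13 lay between 2.71 and 7.39. Muc2 stood at or just under the highest value of the table (19.93) on every array, and Car1 reached it. The narrow range of Muc2 therefore cannot show that tissue content was even. No probe bore the name Il4i1. The Lao1 probe lay between 2.64 and 3.56 on all 12 arrays, near the bottom of the table (lowest value 1.72), and its interaction was 0.24 (SE 0.32, limma's adjusted p = 0.935), so neither deletion was checked by these data and the genotypes rest on the labels. 3 arrays stood apart in ways that touch values given here. Double knockout replicate 2 carried pancreatic acinar transcripts, with a mean over 16 measured genes of 14.72 against 4.14 to 4.79 on the other arrays. Double knockout replicate 1 was highest for 24 inflammatory cytokine and neutrophil chemokine genes (5.83 against 4.24 to 4.74), and IL4i1 knockout replicate 2 was lowest for macrophage, monocyte and dendritic cell genes (5.29 against 5.92 to 6.92). In tissue RNA, fewer cells of a type and less RNA per cell cannot be told apart.

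The interaction was positive and past the threshold, an adjusted p under 0.05 in limma over all probes, for 41 named genes, which is 0.209% of the named probes. It was negative and past it for 5, or 0.0255%. At an unadjusted p under 0.05, 762 named probes were higher (3.89%) and 645 lower (3.3%), and the median over all named probes was -0.03. The positive set consisted mainly of interferon-inducible and antigen-presentation genes, 26 of the 41, together with 3 genes of the mast cell list. These lists were chosen with earlier results of these data known, so the counts describe the set and test nothing. In every one of the 41, the means of both single knockouts lay below wild type and the mean of the double knockout above it. Losing LAO1 went with a lower mean where Il4i1 was intact, by -3.77 to -0.33, and with a higher mean where Il4i1 was lost, by 1.36 to 9.35, and these 2 differences share no array. A positive interaction favours such patterns, so they are given as a description. In 30 of the 41 all 3 double knockout arrays lay above the other 9. A positive interaction favours this too, and the share over all named probes was not computed.

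**Figure D1:**
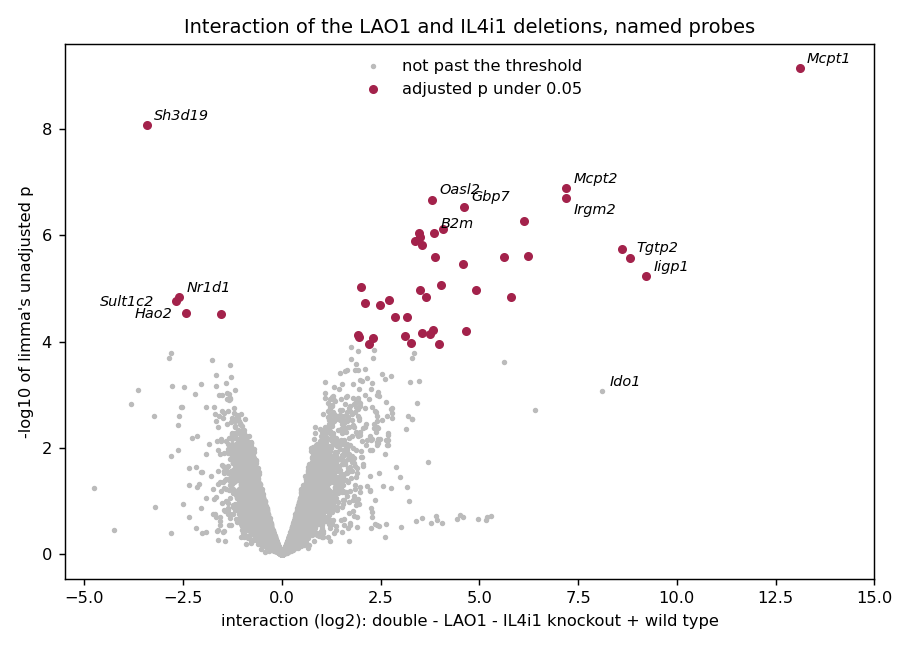
Interaction of each named probe (x axis, log2; positive where the double knockout lay above the sum of the single differences) against -log10 of limma's unadjusted p (y axis). Dark points passed an adjusted p of 0.05; the 41 positive ones reach 13.12 at Mcpt1 and the 5 negative ones reach -3.43 at Sh3d19, while Ido1 at 8.11 did not pass.

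Mast cell proteases held the largest interaction of the table. Mcpt1, a chymase of mucosal mast cells, measured 12.3, 9.68 and 11.58 on the wild type arrays, 6.68, 7.55 and 8.02 on those without LAO1, 2.88, 3.26 and 3.95 on those without IL4i1, and 11.77, 12.95 and 13.41 on those without either. Both single knockouts lay below every wild type and every double knockout array, the IL4i1 knockout lowest, and wild type and double knockout overlapped. The interaction was 13.12 (SE 0.85, limma's adjusted p = 1.62e-05). The level at which the single differences add up was -0.41, below the lowest value of the table, so the size rests on a level that no array could show. With that level set to the table's lowest value, an alternative chosen after seeing the data, the double knockout lay 10.99 above it. The IL4i1 knockout arrays themselves lay near the lowest values of the table, so no fold against them is given. Against the LAO1 knockout, the double knockout mean was 39.2-fold and the wild type mean 13.6-fold higher.

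Mcpt2, the neighbouring mucosal chymase gene, had the same order at lower values: 8.47, 6.07 and 6.73 on the wild type arrays, 4.24, 4.24 and 5.07 on those without LAO1, 3.11, 3.5 and 3.43 on those without IL4i1, and 7.21, 8.36 and 8.35 on those without either. Its interaction was 7.20 (SE 0.71, adjusted p = 0.000953), and its additive level of 0.77 was also below the lowest value of the table. Cpa3, carboxypeptidase A3 of mast cell granules, measured 7.16, 5.54 and 6.46, then 4.74, 4.61 and 4.25, then 3.53, 3.76 and 3.78, and 5.45, 7.22 and 6.56 in the same order of groups. No single knockout array reached the lowest wild type or double knockout array, and the interaction was 4.57 (SE 0.60, adjusted p = 0.00368). The additive level of Cpa3, 1.84, was close to the lowest value of the table (1.72) and below every array of this gene. Cma2, a further chymase gene near Mcpt1 and Mcpt2 that was in no list, had 6.22, 5.87 and 5.43 on the wild type arrays, 4.28, 4.8 and 4.6 on those without LAO1, 3.39, 4.74 and 4.42 on those without IL4i1, and 6.1, 7.04 and 6.03 on those without either, with an interaction of 3.49 (adjusted p = 0.00865).

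The rest of the mast cell list was weaker. Of 13 measured members, 7 were higher at an unadjusted p under 0.05, none lower, and 3 passed the adjusted threshold, with a list median of 1.03 against -0.03 over all named probes. Mcpt4, the chymase of connective tissue mast cells, had an interaction of 1.35 (adjusted p = 0.505), Mcpt9 1.30 (0.456), Ms4a2, a chain of the IgE receptor, 1.03 (0.7) and Gata2, a mast cell transcription factor, 0.71 (0.658). Kit, the stem cell factor receptor that mast cells share with the pacemaker cells of the gut wall, had -0.10 (0.99), and Cma1, Tpsab1 and Fcer1a stood at -0.01, -0.11 and 0.09 and were dim on every array, from 2.39 to 4.05. The list mean per array was 5.12 to 5.69 in wild type, 4.53 to 4.76 in the LAO1 knockout, 4.11 to 4.25 in the IL4i1 knockout and 5.55 to 5.90 in the double knockout, so the single knockouts did not overlap with the other genotypes.

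**Figure D2:**
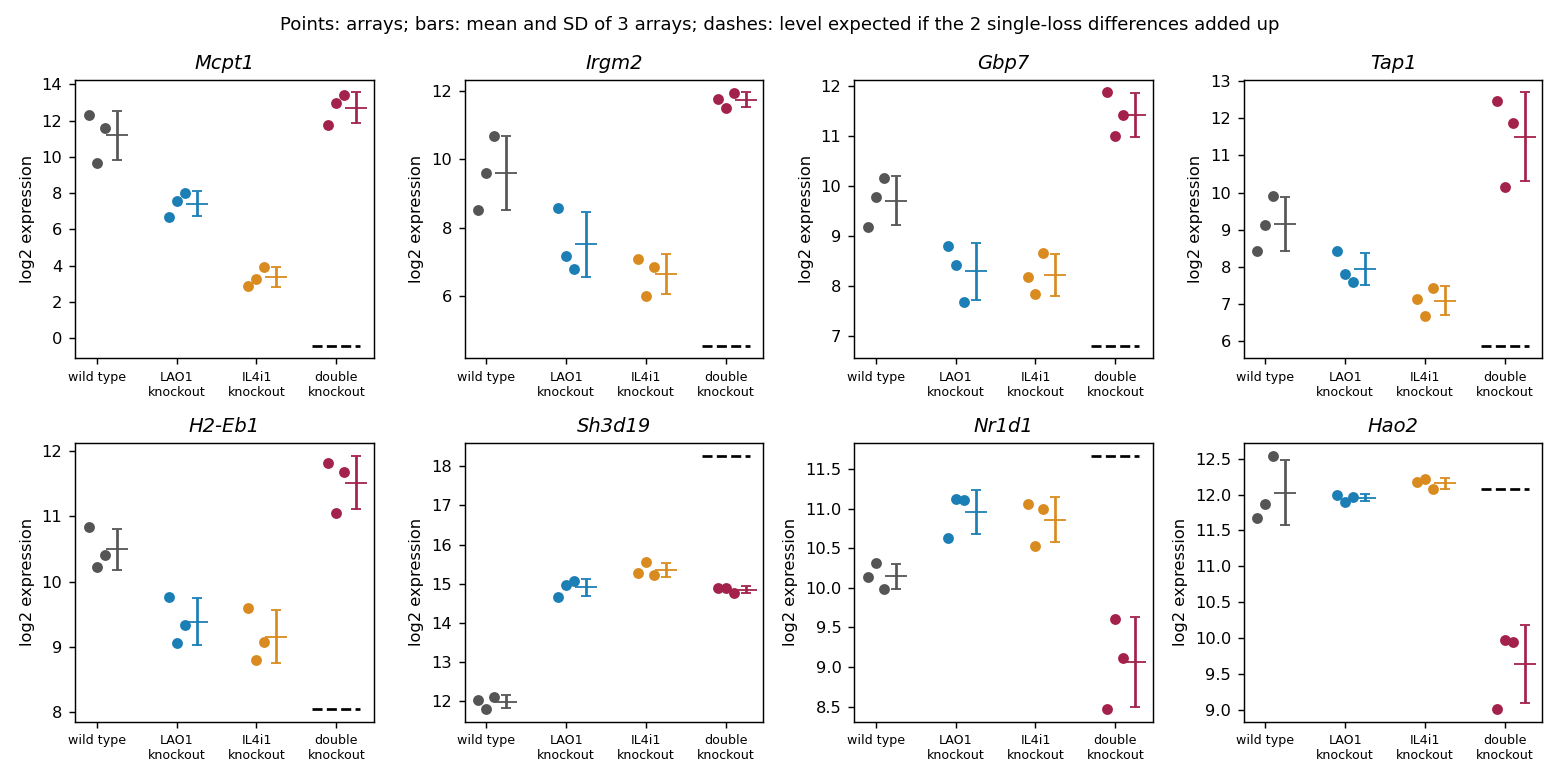
Log2 expression (y axis) on each array (points) by genotype for 5 genes with a positive and 3 with a negative interaction; bars give the mean and SD of 3 arrays, and dashes the level at which the single differences add up. Mcpt1, Irgm2, Gbp7, Tap1 and H2-Eb1 have both single knockouts below wild type and a double knockout far above the dashes, whereas Sh3d19 is high in all 3 knockout genotypes and Hao2 and Nr1d1 are low in the double knockout alone.

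Among the interferons and their receptors that are named here, none passed the adjusted threshold. Ifng, which encodes interferon gamma, was dim throughout, with 4.13, 3.69 and 4.07 on the wild type arrays, 3.84, 3.4 and 3.7 on those without LAO1, 4.62, 3.93 and 4.34 on those without IL4i1, and 5.51, 4.34 and 4.77 on those without either. Its interaction of 0.89 (SE 0.41, adjusted p = 0.7) did not pass. Ifnb1 (-0.35), Ifnl2 (0.14) and Ifnl3 (0.22), the genes of interferon beta and 2 interferons lambda, did not pass either, with adjusted p of 0.914, 0.962 and 0.93. The receptor chain Ifngr1 stood at -0.83 (adjusted p = 0.554), the single member of this list lower at an unadjusted p under 0.05.

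Of the transcription factors downstream, Irf1 and Stat2 passed. Irf1, the factor through which interferon gamma acts on many of its targets, measured 11.59, 10.78 and 12.39 on the wild type arrays, 11.23, 11.82 and 10.72 on those without LAO1, 10.39, 10.5 and 10.89 on those without IL4i1, and 13.84, 12.84 and 13.46 on those without either. Every double knockout array lay above the other 9, and the other groups overlapped. The interaction was 3.12 (SE 0.55, adjusted p = 0.0375), and it passed in 3 of the 12 fits that left out 1 array, with values of 2.72 to 3.52 and adjusted p up to 0.138. Stat2, a transcription factor of the response to type I interferon, had 1.94 (SE 0.35, adjusted p = 0.0382), and also passed in 3 of 12 such fits (1.81 to 2.14, adjusted p up to 0.152). Socs1, the feedback inhibitor, had 1.65 (0.197), Irf9 1.36 (0.284), Irf8 1.52 (0.319), Batf2 2.02 (0.54) and Ciita, the master regulator of MHC class II, 2.41 (0.294). In all, 9 of 23 measured members were higher and 1 lower at an unadjusted p under 0.05, 2 passed the adjusted threshold, and the median was 0.28. Under quantile normalization neither Irf1 (2.94, adjusted p = 0.101) nor Stat2 (1.86, 0.0877) passed, and the list held 0 to 2 past the threshold when single arrays were left out.

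The immunity-related GTPases, which interferon gamma induces and which break up the vacuoles of intracellular parasites and bacteria, had the highest median of any list, 6.13 over 9 measured members. Of these, 8 were higher at an unadjusted p under 0.05 and 7 passed the adjusted threshold. Irgm2, a regulatory member, measured 8.52, 9.61 and 10.68 on the wild type arrays, 8.57, 7.16 and 6.79 on those without LAO1, 7.09, 5.99 and 6.84 on those without IL4i1, and 11.77, 11.51 and 11.94 on those without either. The double knockout arrays lay close together above all others, the IL4i1 knockout lay below every wild type array, and LAO1 knockout replicate 1 overlapped with wild type. The interaction was 7.20 (SE 0.73, adjusted p = 0.000953): the double knockout mean was 34.3-fold above the IL4i1 knockout, and the LAO1 knockout mean 4.28-fold below wild type.

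Tgtp2, an effector GTPase, measured 6.68, 7.83 and 10.05 on the wild type arrays, 7.4, 5.45 and 5.52 on those without LAO1, 5.0, 4.5 and 5.81 on those without IL4i1, and 12.42, 10.45 and 12.66 on those without either. Its interaction was 8.80 (SE 1.13, adjusted p = 0.00308). Iigp1, another effector, had 5.12, 7.62 and 9.93, then 5.03, 5.18 and 4.44, then 4.75, 3.87 and 4.79, and 11.92, 9.58 and 11.55, with an interaction of 9.22 (SE 1.27, adjusted p = 0.00599). Wild type was the most spread group for these genes: for Iigp1 replicate 3 reached the double knockout range and replicate 1 lay near the single knockouts. The additive level of Iigp1, 1.80, was close to the lowest value of the table (1.72) and below every array of this gene. Igtp had 6.24 (adjusted p = 0.00308), Gm12250 6.13 (0.00172), Irgm1 4.91 (0.00865) and Gm4951 4.03 (0.00781). Gm4841, a gene beside Iigp1 and Gm4951, had 8.60 (SE 1.07, adjusted p = 0.0029), with an additive level of 1.63 that was below the lowest value of the table. F830016B08Rik had 2.79 (0.282), and Irgc1, a member of this family not known for interferon induction, was dim at 2.87 to 3.6 with -0.19 (0.947). Leaving out each array in turn, wild type replicate 3 included, gave list medians of 5.71 to 6.69, and all 7 genes passed in each of the 12 fits. Over all 18 alternative fits Iigp1 passed in 16 and Gm4951 in 17. Iigp1 did not pass with limma's trended and robust eBayes (9.22, adjusted p = 0.0758).

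The guanylate-binding proteins, large GTPases that coat microbes and their vacuoles after interferon gamma, were higher at an unadjusted p under 0.05 for 6 of 6 measured members. 4 passed the adjusted threshold and the median was 3.66. Gbp2 measured 6.79, 8.07 and 8.94 on the wild type arrays, 7.32, 6.77 and 5.53 on those without LAO1, 6.57, 6.67 and 6.55 on those without IL4i1, and 11.84, 9.6 and 11.55 on those without either. The double knockout stood above all other arrays, and the LAO1 knockout overlapped with both wild type and the IL4i1 knockout. The interaction was 5.79 (SE 0.87, adjusted p = 0.0106). Gbp7 had 9.19, 9.78 and 10.17, then 8.8, 8.42 and 7.68, then 8.18, 7.84 and 8.66, and 11.88, 11 and 11.43, so that the 2 single knockouts together lay below wild type without overlap. Its interaction was 4.62 (SE 0.49, adjusted p = 0.00107). Gbp3 had 4.08 (0.00202) and Gbp9 2.00 (0.00798), while Gbp4 (3.24, 0.15) and Gbp8 (1.67, 0.291) did not pass. Gbp2b, Gbp5, Gbp6, Gbp10 and Gbp11 had no named probe.

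Both families are switched on through short promoter elements, so stretches of their promoters are printed, from 120 bases before to 20 bases after the RefSeq start on GRCm38.p6. Capitals mark matches, on either strand, to the gamma-activated site (TTCNNNGAA) and the interferon-stimulated response element (GAAANNGAA). Of 6 guanylate-binding protein genes measured, 3 matched a promoter window by symbol. Irgm2 and Igtp were added after their values were seen.
Gbp2, chr3:142620543-142620682, plus strand: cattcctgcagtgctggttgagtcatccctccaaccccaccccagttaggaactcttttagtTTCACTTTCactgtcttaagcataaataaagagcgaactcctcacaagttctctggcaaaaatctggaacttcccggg
Gbp3, chr3:142559924-142560063, plus strand: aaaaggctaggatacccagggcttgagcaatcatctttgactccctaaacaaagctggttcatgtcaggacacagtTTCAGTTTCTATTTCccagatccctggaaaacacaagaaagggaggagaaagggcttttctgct
Gbp7, chr3:142530216-142530355, plus strand: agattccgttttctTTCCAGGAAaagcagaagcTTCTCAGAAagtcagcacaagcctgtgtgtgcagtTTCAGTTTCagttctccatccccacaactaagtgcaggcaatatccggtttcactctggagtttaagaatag
Irgm2, chr11:58214857-58214996, plus strand: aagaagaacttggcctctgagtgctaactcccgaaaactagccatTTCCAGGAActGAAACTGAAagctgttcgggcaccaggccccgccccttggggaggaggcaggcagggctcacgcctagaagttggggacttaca
Igtp, chr11:58199436-58199575, plus strand: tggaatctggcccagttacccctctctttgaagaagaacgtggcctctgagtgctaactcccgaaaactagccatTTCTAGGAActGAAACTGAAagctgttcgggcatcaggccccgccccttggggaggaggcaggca
Counted from the start, the response element began at -58 in Gbp2, at -44 and, overlapping, -38 in Gbp3, at -52 in Gbp7, at -64 in Irgm2 and at -34 in Igtp. The gamma-activated site began at -106 and -87 in Gbp7, at -75 in Irgm2 and at -45 in Igtp, beside the response element in both GTPase genes. The stretches of Irgm2 and Igtp shared a run of 38 bases, and those of the 3 guanylate-binding protein pairs runs of 7, 8 and 13. Over windows of 300 bases at 32851 RefSeq starts, the gamma-activated site was found in 8.3%, the response element in 8.56% and both in 1.07%. A 2nd window of Gbp3 held neither. A match describes these letters and no binding was measured.

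**Figure D3:**
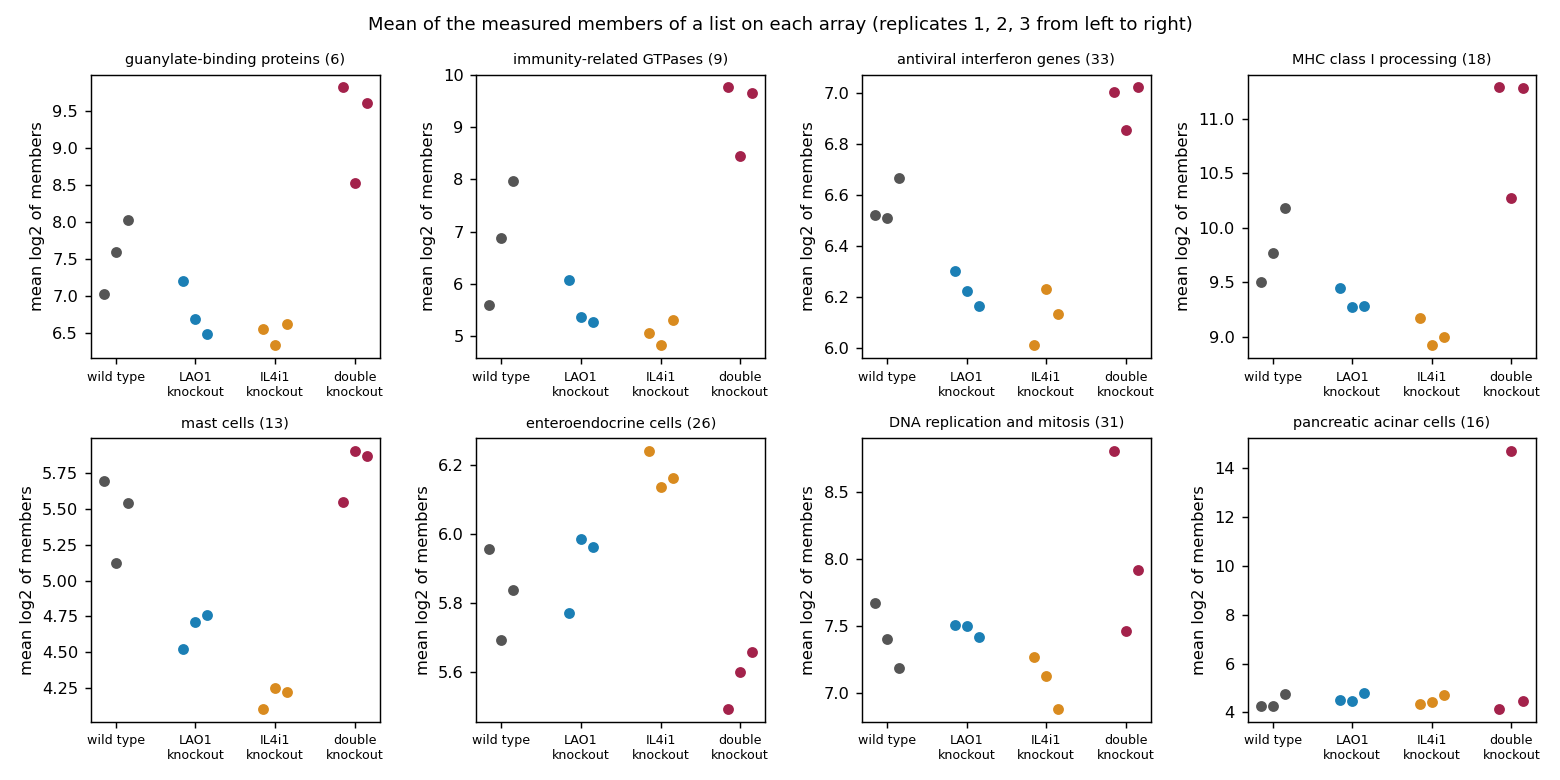
Mean log2 value of the measured members of 8 gene lists (y axis) on each array (points, replicates 1 to 3 from left to right) by genotype. In the interferon, MHC class I and mast cell panels both single knockouts lie low and the double knockout high, although LAO1 knockout replicate 1 is above the lowest wild type array in both GTPase panels; the enteroendocrine panel has the double knockout lowest, and the acinar panel shows double knockout replicate 2 at 14.72.

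Antiviral genes, the targets of type I and III interferon that overlap in part with those of interferon gamma, had smaller interactions, spread over most of the list. Of 33 measured members, 22 were higher at an unadjusted p under 0.05, none lower, and the median was 1.03. Oasl2, of the oligoadenylate synthetase family, measured 8.96, 9.44 and 9.98 on the wild type arrays, 8.1, 8.12 and 8.7 on those without LAO1, 8.13, 8.43 and 7.95 on those without IL4i1, and 10.61, 10.73 and 11.14 on those without either. The 3 levels did not overlap: single knockouts low, wild type between, double knockout high. Its interaction was 3.81 (SE 0.39, adjusted p = 0.000953). Parp9 (2.31, adjusted p = 0.0388), Parp14 (2.20, 0.0483) and Herc6 (1.92, 0.0364) passed too, but each in 2 of the 12 fits without 1 array, with adjusted p up to 0.158, 0.177 and 0.117. Zbp1, a sensor of Z-form nucleic acids, had 2.33 (0.0596), and passed without LAO1 knockout replicate 1 (2.62, 0.0265). It also passed with array weights (2.36, 0.0339) and with trended and robust eBayes (2.33, 0.0379). Under quantile normalization Oasl2 alone of the 33 passed, and the number that passed was 1 to 5 when single arrays were left out. Of genes picked after their values were seen as known type I interferon targets, Isg15 stood at 1.10, Ifit1 at 0.73, Mx1 at 0.38 and Oas2 at -0.27, none past the adjusted threshold. Oas2 was the lowest member of the list, in which 31 of 33 had a positive interaction, so these genes do not stand for the list.

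Chemokines that draw activated T cells through CXCR3 were scattered. Cxcl9 measured 3.97, 5.88 and 6.99 on the wild type arrays, 5.33, 4.83 and 4.05 on those without LAO1, 4.27, 4.27 and 3.77 on those without IL4i1, and 13.36, 7.46 and 8.06 on those without either. All 3 double knockout arrays were above the others, but replicate 1 stood far above the other two, and the interaction of 6.40 (SE 1.66, adjusted p = 0.252) did not pass. Cxcl10 had 1.90 (0.6), again with double knockout replicate 1 highest at 7.72 against 5.13 and 5.22. Of 7 measured members of the list, 2 were higher at an unadjusted p under 0.05 and none passed the adjusted threshold, and 1 was higher without IL4i1 knockout replicate 2 or LAO1 knockout replicate 3.

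Genes that supply and display peptides on MHC class I were higher at an unadjusted p under 0.05 for 16 of 18 measured members, with a median of 2.08, and 6 passed the adjusted threshold. That number was 4 or 5 in 11 of the 12 fits that left out 1 array, and 10 without double knockout replicate 2. Tap1, the peptide transporter into the endoplasmic reticulum, measured 8.44, 9.12 and 9.91 on the wild type arrays, 8.43, 7.82 and 7.59 on those without LAO1, 7.15, 6.68 and 7.44 on those without IL4i1, and 12.47, 10.16 and 11.86 on those without either. The double knockout lay above all other arrays, the IL4i1 knockout below all other arrays, and LAO1 knockout replicate 1 all but met the lowest wild type array. The interaction was 5.62 (SE 0.72, adjusted p = 0.00308). B2m, the light chain of every class I molecule, had 18.08, 18.28 and 19.25, then 17.8, 17.35 and 17.24, then 17.18, 16.36 and 16.8, and 19.64, 19.2 and 19.8, close to the highest value of the table (19.93), with an interaction of 3.84 (SE 0.45, adjusted p = 0.00202).

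The heavy chains H2-Q4 (3.56, adjusted p = 0.00258), H2-D1 (2.49, 0.013) and H2-K1 (2.86, 0.0197) and the immunoproteasome subunit Psmb8 (3.97, 0.0483) also passed. H2-D1 did not pass without wild type replicate 2 (adjusted p = 0.0537), H2-K1 passed in 5 of 12 such fits (adjusted p up to 0.0639) and Psmb8 in 1 (up to 0.188). H2-Q5, a class I gene outside the list, had 3.87 (0.00308). The immunoproteasome partners Psmb9 (2.53, 0.124) and Psmb10 (2.29, 0.154), Tap2 (2.02, 0.148), Tapbpl (2.15, 0.135) and the trimming peptidase Erap1 (1.44, 0.171) did not pass. Class I heavy chain genes, like the Tgtp, Irgm and Gbp genes, belong to families of related genes, some of them close copies. A probe may read more than 1 close copy, so values of single members are uncertain. Which probes do so was not tested.

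Of the MHC class II genes, 3 chains of the classical molecules passed the adjusted threshold. H2-Eb1, a beta chain that presents peptides to helper T cells, measured 10.84, 10.23 and 10.41 on the wild type arrays, 9.77, 9.06 and 9.33 on those without LAO1, 9.6, 8.8 and 9.07 on those without IL4i1, and 11.82, 11.05 and 11.68 on those without either. These levels did not overlap between the single knockouts, wild type and the double knockout. The interaction was 3.47 (SE 0.40, adjusted p = 0.00202). H2-Ab1 had 3.64 (0.0106) and H2-Aa 3.82 (0.0331). H2-Aa passed in 3 of the 12 fits without 1 array (3.31 to 4.23, adjusted p up to 0.104). H2-DMa (3.36, 0.065) and H2-DMb1 (3.47, 0.148), which load peptides, did not pass. H2-DMa did pass without LAO1 knockout replicate 1 (3.84, 0.0159), IL4i1 knockout replicate 1 (3.68, 0.0439) or double knockout replicate 2 (3.78, 0.0175). It also passed with array weights (3.49, 0.0305) and with the replicate block (3.36, 0.0149). H2-Ob, H2-Oa and H2-Eb2, of which Ob and Oa belong to B cells, stood at -0.68, -0.09 and -0.31. In all, 6 of 11 were higher at an unadjusted p under 0.05 and none lower, with a median of 2.41. The number that passed was 2 to 4 in 11 of the 12 fits that left out 1 array. Without IL4i1 knockout replicate 1, 5 passed the adjusted threshold, and without the 3 arrays that stood apart, which leaves 1 double knockout array with its spread taken from the other groups, 1 did. B cell genes also display class II, and the mean over the 12 measured lay between 4.21 and 4.62 in wild type and between 4.08 and 4.90 in the double knockout. Single knockouts spread wider, with IL4i1 knockout replicate 1 at 5.545, LAO1 knockout replicate 1 at 5.5258 and LAO1 knockout replicate 2 at 4.0033. The class II list mean did not separate as H2-Eb1 did. It was 7.64 on IL4i1 knockout replicate 1 and 7.68 on LAO1 knockout replicate 1, above the wild type arrays at 7.32 to 7.52. The double knockout arrays lay higher still, at 7.90 to 8.68. The part of B cells in these values was not tested.

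**Figure D4:**
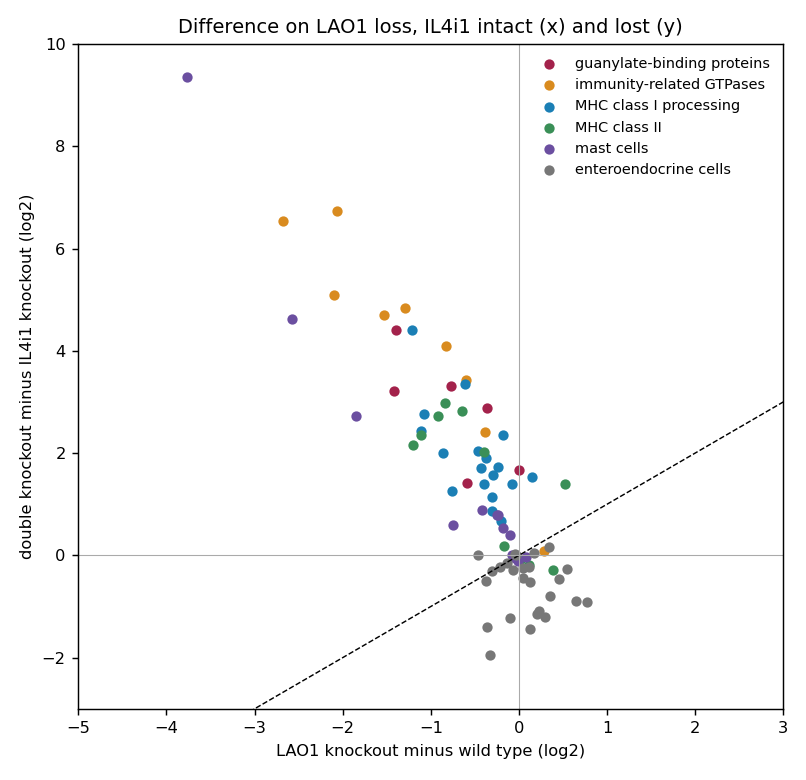
Difference on LAO1 loss for the members of 6 lists, with Il4i1 intact (LAO1 knockout minus wild type, x axis, log2) and with Il4i1 lost (double knockout minus IL4i1 knockout, y axis, log2). The dashed line marks equal differences; the vertical distance above it is the interaction, and Mcpt1 lies at -3.77 and 9.35.

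Ido1, the interferon-inducible enzyme that opens the kynurenine pathway of tryptophan use and is named in the title of the study, measured 3.4, 5.93 and 7.91 on the wild type arrays, 4.48, 4.37 and 3.85 on those without LAO1, 4.36, 4.72 and 5.01 on those without IL4i1, and 14.85, 7.88 and 11.14 on those without either. Double knockout replicate 2 at 7.88 lay just below wild type replicate 3 at 7.91, and replicate 1 stood highest by far. The interaction of 8.11 (SE 1.89) had an adjusted p of 0.18, so it did not pass. Without double knockout replicate 2, the array with acinar transcripts, it passed, at 9.81 (adjusted p = 0.0102), and in the other 11 fits that left out 1 array it did not, at 6.33 to 9.28 (adjusted p from 0.111 to 0.423). Wars, the tryptophanyl-tRNA synthetase that interferon gamma also induces, measured 13.15, 13.25 and 13.08 on the wild type arrays, 13.26, 12.0 and 12.48 on those without LAO1, 12.92, 11.14 and 12.63 on those without IL4i1, and 15.7, 14.3 and 14.8 on those without either. It had all double knockout arrays above the rest and an interaction of 3.28 (SE 0.65, adjusted p = 0.0766). That interaction passed without double knockout replicate 2 (3.60, 0.0369) and without IL4i1 knockout replicate 1 (3.63, 0.044). It also passed with array weights (3.12, 0.033) and with the replicate block (3.28, 0.012). The enzymes after Ido1 showed no such values: Kynu stood at 0.17, Kmo at 0.13, Haao at -0.39, Qprt at -0.26, Afmid at -0.49 and Kyat1 at -0.72, none past an unadjusted p of 0.05. Of 14 measured members 3 were higher at that p (Wars, Ido1 and Got2) and the median was -0.16. Of 10 genes of the aryl hydrocarbon receptor list, whose ligands include kynurenine, 1 was higher (Tiparp, 0.72, adjusted p = 0.648) and the median was -0.11.

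Of the 41 genes with a positive interaction 11 stood in no list, and several are known interferon targets. Cd274, which encodes the immune checkpoint ligand PD-L1, measured 6.46, 6.95 and 6.98 on the wild type arrays, 5.9, 5.77 and 6.2 on those without LAO1, 5.29, 4.46 and 5.02 on those without IL4i1, and 8.2, 7.35 and 7.2 on those without either. The 4 genotypes did not overlap, and the interaction was 3.50 (SE 0.41, adjusted p = 0.00221). Lgals9, the lectin galectin-9, had an interaction of 3.38 (SE 0.41, adjusted p = 0.00242), also with 4 groups that did not overlap: 9.28, 9.72 and 9.51, then 9.09, 8.9 and 8.72, then 8.1, 7.31 and 7.73, and 11.16, 10.16 and 10.16. Fads1, a fatty acid desaturase, had 2.71 (0.0113) with the IL4i1 knockout lowest. Samhd1, which breaks down deoxynucleotides (3.76, 0.0364), Tnfsf10, the death ligand TRAIL (3.54, 0.0358), Ube2l6, the conjugating enzyme for ISG15 (3.26, 0.0483), and Tmem229b (3.17, 0.0197) passed in 5, 5, 3 and 5 of the 12 fits that left out 1 array, with adjusted p up to 0.127, 0.138, 0.185 and 0.0733. These genes were named after their values were seen.

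Some of the genes past the threshold were neighbours on the chromosomes. In the order of protein-coding genes in RefSeq (assembly GRCm38.p6), 45 of the 46 named genes past the threshold were found, and 26 had another of them within 10 genes; the others had none, and the share among other genes was not computed. The neighbours were Mcpt1, Mcpt2 and Cma2; Gbp2, Gbp3 and Gbp7; Irgm2, Igtp and Gm12250; Irgm1, Tgtp2 and Gm5431; Iigp1, Gm4951 and Gm4841; H2-Aa, H2-Ab1, H2-Eb1, Tap1 and Psmb8; H2-Q4 and H2-D1; Parp9 and Parp14; and Cpa3 and Tnfsf10. Most of these groups are families of related genes that lie side by side.

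Ccl8, a monocyte chemokine made by tissue macrophages, was the single macrophage, monocyte and dendritic cell gene past the adjusted threshold. It measured 8.42, 6.83 and 6.25 on the wild type arrays, 6.46, 5.61 and 5.57 on those without LAO1, 5.48, 4.34 and 5.07 on those without IL4i1, and 7.11, 9.16 and 8.78 on those without either, with an interaction of 4.67 (SE 0.81, adjusted p = 0.0337). Wild type overlapped with both the LAO1 and the double knockout. It passed in 4 of 12 fits without 1 array (4.05 to 5.29, adjusted p up to 0.13). The complement gene C1qa (1.67, 0.282), the monocyte receptor Ccr2 (1.86, 0.109) and the integrin Itgam (1.68, 0.472) did not pass. Ccr2 did pass without IL4i1 knockout replicate 1 (2.12, 0.0406) and with the replicate block (1.86, 0.0239). In the list 7 of 19 were higher and 1, the phagocytic receptor Mertk (-1.08, adjusted p = 0.675), lower at an unadjusted p under 0.05, with a median of 0.98. IL4i1 knockout replicate 2, lowest for this list, enters these values; with it and the other 2 arrays that stood apart left out, 3 of 19 were higher.

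5 genes had a negative interaction. Sh3d19, an adaptor protein with SH3 domains, measured 12.03, 11.79 and 12.11 on the wild type arrays, 14.67, 14.96 and 15.08 on those without LAO1, 15.28, 15.55 and 15.21 on those without IL4i1, and 14.9, 14.89 and 14.75 on those without either. All 9 knockout arrays lay above wild type, and the double knockout stood at the level of the LAO1 knockout, against an additive level of 18.27. The interaction was -3.43 (SE 0.27, adjusted p = 9.47e-05). Losing LAO1 went with 2.93 more where Il4i1 was intact and with -0.50 where it was lost.

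Hao2, a peroxisomal hydroxyacid oxidase that releases hydrogen peroxide, had a different pattern. It measured 11.67, 11.87 and 12.54 on the wild type arrays, 12.0, 11.9 and 11.96 on those without LAO1, 12.17, 12.22 and 12.07 on those without IL4i1, and 9.01, 9.97 and 9.94 on those without either. The 3 first genotypes overlapped and the double knockout lay below all of them, with an interaction of -2.44 (SE 0.39, adjusted p = 0.0177). It passed in 6 of 12 fits without 1 array, with adjusted p up to 0.069. Sult1c2, a cytosolic sulfotransferase, was likewise lowest in the double knockout, at 5.44, 4.84 and 4.71 against 7.04, 6.44 and 7.25 on the wild type arrays, 6.84, 6.95 and 6.64 on those without LAO1 and 8.32, 7.39 and 7.64 on those without IL4i1. Its interaction was -2.69 (SE 0.41, adjusted p = 0.0114).

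Nr1d1, the clock repressor REV-ERB alpha, measured 10.14, 10.31 and 9.99 on the wild type arrays, 10.63, 11.12 and 11.11 on those without LAO1, 11.06, 10.53 and 10.99 on those without IL4i1, and 8.47, 9.61 and 9.11 on those without either. The single knockouts lay above wild type and the double knockout below it, the mirror image of the interferon genes, with an interaction of -2.60 (SE 0.39, adjusted p = 0.0106). Nr1d1 follows the time of day, and the labels do not give the hour of collection. Other clock genes did not pass: Dbp, a clock output, had -2.21 (0.196) and Per1 0.98 (0.698), and the 19 measured members had a median of -0.24. Dbp did not share the pattern of Nr1d1. Its mean was 9.37 in wild type, 10.87 in the LAO1 knockout, 11.45 in the IL4i1 knockout and 10.74 in the double knockout. Every knockout array of Dbp lay above every wild type array. Fam161a, a ciliary protein gene, had 4.31, 4.58 and 4.61, then 5.18, 5.4 and 5.13, then 5.5, 5.48 and 5.49, and 4.58, 4.71 and 4.77. The single knockouts lay above the other genotypes, and the double knockout overlapped with wild type. Its interaction was -1.54 (SE 0.25, adjusted p = 0.0179), and it passed in 8 of 12 fits without 1 array, with adjusted p up to 0.0661.

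**Figure D5:**
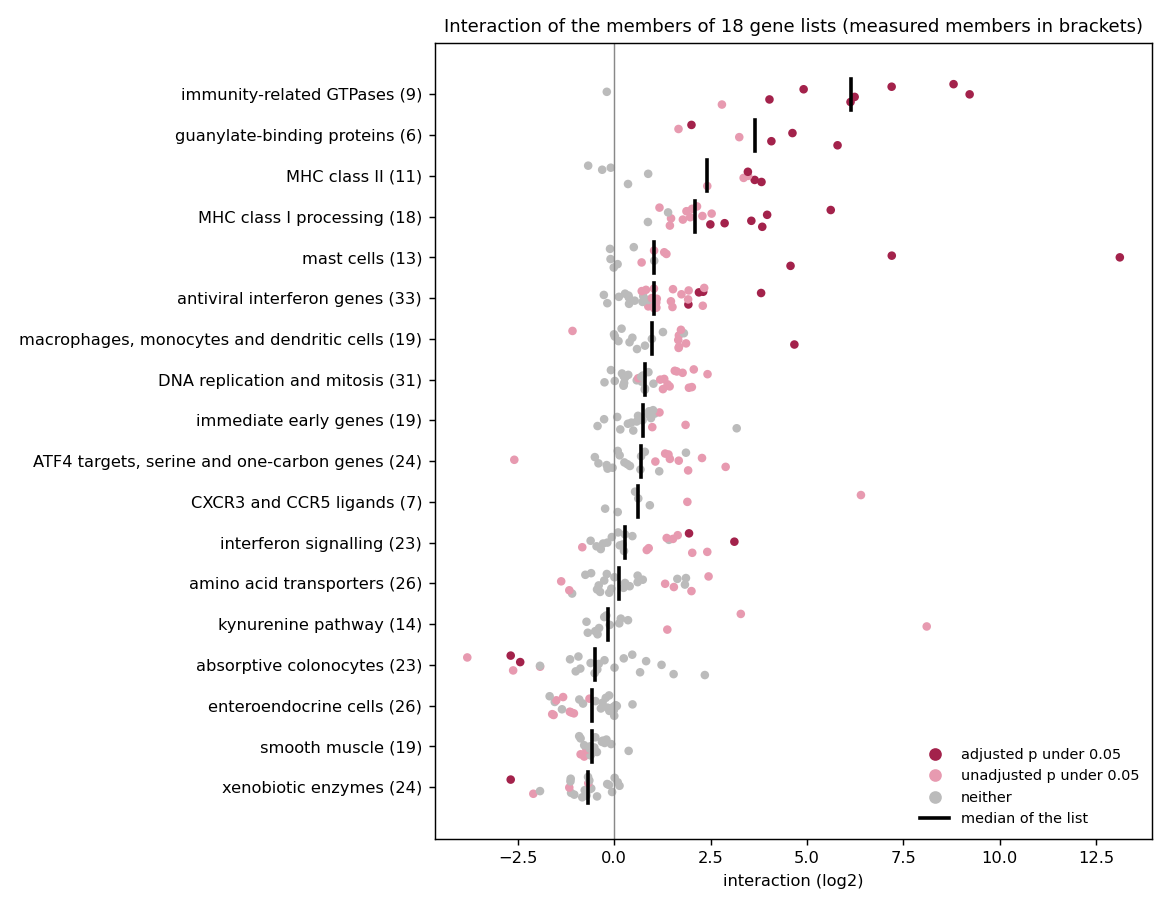
Interaction (x axis, log2) of every measured member of the 18 described gene lists, with the number measured in brackets and a bar at the list median. Medians run from 6.13 for the immunity-related GTPases to -0.68 for the xenobiotic enzymes, and dark points passed the adjusted threshold.

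Enteroendocrine cells, the hormone-making cells of the epithelium, had the most members with a negative interaction. Of 26 measured, 8 were lower at an unadjusted p under 0.05 and none higher, with a median of -0.57, and none passed the adjusted threshold. Scg2, a granin of secretory granules, measured 6.92, 7.02 and 6.86 on the wild type arrays, 6.58, 7.95 and 7.17 on those without LAO1, 7.4, 8.0 and 7.65 on those without IL4i1, and 6.57, 6.34 and 6.53 on those without either. The IL4i1 knockout lay above wild type, the double knockout below all arrays, and the interaction was -1.50 (adjusted p = 0.284). The granins Chga (-1.57, 0.688) and Chgb (-1.61, 0.698) and the hormone genes Gcg (-1.15, 0.501) and Sst (-1.33, 0.551) were among the 8, while Tph1, which makes serotonin, stood at -0.13. The list mean per array was 5.69 to 5.96 in wild type, 5.77 to 5.99 in the LAO1 knockout, 6.14 to 6.24 in the IL4i1 knockout and 5.49 to 5.66 in the double knockout. The count fell to 3 without LAO1 knockout replicate 3, to 4 without double knockout replicate 1 or wild type replicate 2, and to 5 without LAO1 knockout replicate 2, double knockout replicate 3 or wild type replicate 3.

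Absorptive colonocyte genes were lower at an unadjusted p under 0.05 for 5 of 23 measured members, none were higher, and Sult1c2 and Hao2 alone passed the adjusted threshold. The median was -0.51, and it was 0 without the 3 arrays that stood apart. Car4, a carbonic anhydrase of the surface cells, measured 16.34, 15.58 and 14.74 on the wild type arrays, 16.48, 15.78 and 16.73 on those without LAO1, 16.32, 17.39 and 16.53 on those without IL4i1, and 13.43, 14.72 and 16.55 on those without either. Its groups overlapped and its interaction of -2.62 (adjusted p = 0.497) did not pass. Saa1, an acute phase protein gene that colonocytes also express, had -3.81 (0.229), or -4.57 (0.0488) without IL4i1 knockout replicate 1. Without IL4i1 knockout replicate 3 the count was 9 of 23. Xenobiotic enzymes were lower for 4 of 24, with a median of -0.68, among them the glutathione transferase Gsta4 (-1.17, 0.456) and the esterase Ces2a (-2.10, 0.7), and that count lay between 2 and 8 when 1 array was left out: 2 without IL4i1 knockout replicate 1, LAO1 knockout replicate 2 or 3, or double knockout replicate 2 or 3, 7 without LAO1 knockout replicate 1, and 8 without IL4i1 knockout replicate 3.

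Genes of DNA replication and mitosis were higher at an unadjusted p under 0.05 for 13 of 31 measured members, none lower, with a median of 0.79. Mki67, a marker of dividing cells, measured 15.36, 14.77 and 14.2 on the wild type arrays, 14.6, 13.67 and 13.72 on those without LAO1, 13.87, 12.56 and 12.92 on those without IL4i1, and 15.96, 14.03 and 14.28 on those without either. The groups overlapped and its interaction of 2.42 (adjusted p = 0.336) did not pass, nor did those of Rrm2 (1.62, 0.377), Bub1 (1.94, 0.378) and Ccna2 (2.01, 0.501). Mki67 passed with the replicate block (2.42, 0.0164) and in none of the fits that left out 1 array. Double knockout replicate 1 was the highest array of the list at 8.80 against 6.88 to 7.92, and without it 6 of 31 were higher and the median was 0.37. The count was 8 without IL4i1 knockout replicate 3 or wild type replicate 1.

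Genes of the amino acid stress response, the targets of ATF4 together with serine and one-carbon enzymes, were higher for 8 of 24 and lower for 1 at an unadjusted p under 0.05, with a median of 0.69 and none past the adjusted threshold. Asns, asparagine synthetase, measured 12.14, 12.16 and 11.44 on the wild type arrays, 12.06, 11.57 and 11.97 on those without LAO1, 10.55, 10.54 and 11.1 on those without IL4i1, and 12.94, 13.16 and 11.7 on those without either. The IL4i1 knockout lay below every other array and the interaction was 1.92 (adjusted p = 0.244), or 2.37 (0.0285) without double knockout replicate 3, which stood lowest of its group. Nupr1, a stress-induced chromatin protein, went the other way, at 12.72, 14.1 and 13.45, then 12.23, 14.23 and 13.68, then 12.85, 12.94 and 11.57, and 9.67, 9.91 and 9.87. The double knockout lay below all 9 other arrays, but the spread within the other groups left an interaction of -2.59 at an adjusted p of 0.279. The list mean was 8.29 and 8.38 on double knockout replicates 1 and 2, both of which stood apart, and 7.46 on replicate 3. Without the 3 arrays that stood apart 1 of 24 was higher, and the part of acinar transcripts in the list was not tested.

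Amino acid transporters were higher for 4 of 26 and lower for 2, with a median of 0.12. The neutral amino acid carriers Slc1a4 (2.00, 0.54) and Slc7a5 (2.45, 0.633) and Slc3a2 (1.32, 0.592), the heavy chain that partners Slc7a5, stood among the higher, and Slc6a14 (-1.38, 0.457) and Slc1a5 (-1.17, 0.483) among the lower. The median was -0.04 without LAO1 knockout replicate 2 and -0.28 without the 3 arrays that stood apart. The count of 4 was 1 without wild type replicate 1 and 2 without wild type replicate 2, double knockout replicate 1 or double knockout replicate 2. Immediate early genes, which respond within minutes to handling as well as to signals, were higher for 3 of 19 with a median of 0.73, Egr2 (0.99), Nr4a2 (1.17) and Fos (1.85) among them, none past the adjusted threshold. That count was 1 without LAO1 knockout replicate 2, 5 without LAO1 knockout replicate 3, 6 without IL4i1 knockout replicate 3 and 7 without wild type replicate 3. Smooth muscle genes were lower for 3 of 19 with a median of -0.58, for example Acta2 (-0.78, 0.693), and IL4i1 knockout replicate 2 was the highest array of this list at 12.92 against 11.25 to 12.39. The count was 7 without IL4i1 knockout replicate 1, 6 without double knockout replicate 2, and 1 without any of IL4i1 knockout replicates 2 and 3, LAO1 knockout replicates 2 and 3, double knockout replicates 1 and 3, and wild type replicates 1 and 2.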

How the data were processed

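Affymetrix arrays measured biotin-labelled cRNA from 6 µg of colonic RNA on 12 arrays, 3 per genotype, per the labels' protocols. The values used are the log2 signals that the authors deposited, 1 per probe and array. The submitters' processing notes name the Transcriptome Analysis Console, and no label states the normalization. Array medians were 5.415 to 5.49. Depth does not apply to arrays, and their number limits the precision.

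A mean per genotype was fitted to all 22206 probes using lmFit and eBayes (limma 3.58.1, R 4.3.3), and the interaction was tested two-sided, with Benjamini-Hochberg adjustment over all probes. No filter was applied. Each gene of a list was read from 1 probe, that with the highest mean. The fit was tested on simulated data. Tables and figures used Python 3.11.15, pandas 2.3.3 and matplotlib 3.10.9. Probe names came from GEO's platform annotation: 2634 probes had no gene name.

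The genes named were Lao1, Il4i1 and Ido1, up to 15 with the largest interaction past the threshold in each direction, and up to 4 members of each list with the smallest unadjusted p under 0.05. A list was described where over 15% of its members had such a p in 1 direction. Other genes were named for their role after their values were seen. The comparison, the lists and their members were chosen with earlier results of these data known. Alternatives were a replicate block, quantile normalization, array weights, trended and robust eBayes, a filter at the 40th percentile, adjustment over named probes, 1 probe per gene, linear-scale expectation, list means, means over probes, and leaving out arrays, singly or the 3 that stood apart together, which leaves 1 double knockout array whose spread is taken to be that of the other groups.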

Additional observations from a re-analysis of the deposited data

Results flagged for a closer look

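A difference between genotypes under the same loss, tested as the interaction itself, is what sets these results apart: LAO1 loss went with another difference where Il4i1 was lost than where it was intact. Over all probes, unnamed ones included, 46 had a positive and 5 a negative interaction at an adjusted p under 0.05 (limma). Values below are interactions on the log2 scale.

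Among mast cell genes these included Mcpt1 at 13.12, Mcpt2 at 7.20 and Cpa3 at 4.57. Among immunity-related GTPases they included Iigp1 at 9.22, Tgtp2 at 8.80, Irgm2 at 7.20, Igtp at 6.24, Gm12250 at 6.13, Irgm1 at 4.91 and Gm4951 at 4.03, with Gm4841 at 8.60 beside them. The guanylate-binding proteins were Gbp2 at 5.79, Gbp7 at 4.62, Gbp3 at 4.08 and Gbp9 at 2.00. Of the signalling and antiviral genes, Irf1 stood at 3.12, Stat2 at 1.94, Oasl2 at 3.81, Parp9 at 2.31, Parp14 at 2.20 and Herc6 at 1.92. Of the antigen presentation genes, Tap1 stood at 5.62, B2m at 3.84, H2-Q4 at 3.56, H2-D1 at 2.49, H2-K1 at 2.86, Psmb8 at 3.97, H2-Aa at 3.82, H2-Ab1 at 3.64 and H2-Eb1 at 3.47. The chemokine Ccl8 had 4.67.

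The negative ones were Sh3d19 at -3.43, Sult1c2 at -2.69, Nr1d1 at -2.60, Hao2 at -2.44 and Fam161a at -1.54.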

How the results depend on the processing

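Of 46 named genes past the threshold, 30 passed in all 12 fits that left out 1 array. The number of probes with a positive interaction past it was 32 to 69 in those fits, and that with a negative one 3 to 7. The replicate block, with numbers that did not pair the arrays (correlations of deviations from -0.142 to 0.218; 5 of 12 arrays closest to their own number), gave 52 positive and 8 negative, with 45 of the 51 probes shared. Without the 3 arrays that stood apart, which leaves 1 double knockout array assumed to vary like the other groups, these were 38 and 3, and 33 of the 51 were shared. Quantile normalization gave 35 and 5. Lower probes at an unadjusted p under 0.05 numbered 723 among all 22206 probes and 420 among probes above the 40th percentile. Higher probes numbered 859 and 663. That filter leaves fewer probes to test, so the smaller counts do not by themselves show a changed result. Of 1985 values of named genes under the alternatives, 102 lost the threshold, 20 gained it and 0 changed sign. Only values of genes past the threshold in the main fit could lose it. Values on the linear scale, or with the additive level held at the table's lowest value or above, carry no p and could do neither. The 102 are thus a larger share of the values that could lose the threshold than of all 1985. Most of the named genes were named for a small p on these same arrays, which favours an unchanged sign. For 28 of 101 named genes no linear-scale level above 0 could be computed.

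List medians changed sign in 64 of 924 cases, in 20 of 44 lists. In 7 of these the median had been larger than the spread between replicates (1 SD), as follows. Without the 3 arrays that stood apart, ion transport went from -0.27 to 0.0783, stem cells from -0.14 to 0.0108 and cholesterol synthesis from 0.60 to -0.0317. The mean over stem cell members was 0.2131. Leaving out 1 array gave -0.46 to 0.04 for ion transport, -0.1942 to 0.0208 for aryl hydrocarbon receptor targets and -0.1033 to 0.2317 for peroxide enzymes. The cause was not tested.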

Other observations

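T and cytotoxic lymphocyte genes were dim, with list means of 4.39 to 4.51 in wild type, 4.29 to 4.40 in the LAO1 knockout, 4.38 to 4.49 in the IL4i1 knockout and 4.62 to 4.93 in the double knockout. Of 20 measured, 3 had a higher interaction at an unadjusted p under 0.05, none lower, and the median was 0.35. That count was 5 without IL4i1 knockout replicate 1 or double knockout replicate 2, and 6 without the 3 arrays that stood apart. In these fits 0, 1 and 1 were past the adjusted threshold. Plasma cell genes, 8 measured, had a median of 0.57 and none past that p in either direction, and their array means overlapped between all genotypes, from 7.85 to 10.41.

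The 16 pancreatic acinar genes had a median interaction of 3.01, yet 0 passed an unadjusted p under 0.05 (limma), and the median was -0.28 without double knockout replicate 2.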
